A study of Homo sapiens with 16 samples.

Results

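The matrix metalloproteinase (MMP), ADAMTS and TIMP genes were read from RNA-sequencing of the GRC1 bladder cancer cell line and its parent. They were taken by name, as every row of the deposited table that is called MMP with a number (MMP23B included), ADAMTS with a number or TIMP1 to TIMP4. This gave 44 of the 39007 rows, namely 21 MMP, 19 ADAMTS and 4 TIMP genes. Of these, 24 had a mean above 1 CPM (counts of a gene scaled to a fixed library total) over the 16 libraries and were tested among 13249 such genes, with 11 MMP, 9 ADAMTS and 4 TIMP genes among them.

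T24 is an established human bladder cancer cell line, and GRC1 is 1 of 4 lines made from it by repeated survival of gemcitabine, a nucleoside analog used as chemotherapy. The study asked how expression changed step by step as resistance was built up. Parental phase P0 is T24 before any selection with the drug. The early (P3), intermediate (P7) and late (P15) phases were taken after 3, 7 and 15 rounds of selection, each with 1.5 µM gemcitabine for 72 h according to the methods, with 4 libraries at each phase. All cells, P0 included, were kept in the same serum-containing medium. The library titles of all 4 phases carry the letters NT. Whether the drug was present when RNA was taken is not stated in the sources used here. No T24 culture kept for as long without the drug was among the libraries, so drug exposure, time in culture and any sequencing batch of a phase cannot be told apart. The labels do not say whether the 4 libraries of a phase came from separate cultures, so the p-values measure the spread between these libraries, which may be technical.

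MMPs are zinc-dependent enzymes that cut proteins of the extracellular matrix and of the cell surface, and most are secreted or membrane-bound proenzymes that must be activated. ADAMTS enzymes are secreted relatives with thrombospondin repeats that cut proteoglycans such as versican, trim procollagens or process other matrix proteins. TIMPs are secreted inhibitors that bind the active site of these enzymes, and in tumors the balance between enzymes and inhibitors is studied for its part in invasion and matrix turnover.

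Values are given as log2(CPM + 1), the scale of the deposited table, on which differences of weakly expressed genes are smaller than on a plain log2 scale. Library depth, read off the steps between the smallest values, was 33.8 to 50 M counts, so that 1 count was worth at most 0.0296 CPM and the limit that a count of 0 allows (3 counts) was at most 0.0888 CPM, or 0.12 as log2(CPM + 1), for counting error alone. Differences are later minus earlier phase from limma, with their standard error (SE). A gene was called where the Benjamini-Hochberg adjusted p was below 0.05 and the difference was at least 1 in size. With 4 libraries per phase and this depth, 86.2% of all tested genes passed the adjusted p between P0 and P15, which is why a size threshold was added. In bulk RNA, fewer cells of a type and less RNA per cell cannot be told apart.

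The genes moved in both directions, and most of the movement lay between P7 and P15, as it did over all genes tested. Over all genes the median absolute difference was 0.55 from P7 to P15, against 0.23 from P0 to P3 and 0.17 from P3 to P7. From P7 to P15, the stromelysin and collagenase genes MMP3 and MMP1 rose by 6.41 and 4.44 on the log2 scale, while the inhibitor TIMP3, the protease ADAMTS12 and the membrane-type MMP14 fell by 5.06, 7.50 and 3.32. The size for ADAMTS12 is set largely by the added 1, since this gene lay near the limit of counting at P15. From P0 to P3 the genes MMP1, MMP3, ADAMTS1 and ADAMTS6 rose, and each of the 4 fell again from P3 to P7.

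Between P3 and P0, 7 of the 24 tested members were called, which is 29.2%, beside 4.46% of all genes tested. Of these, 4 were higher (1.95% of all genes) and 3 lower (2.51%). From P3 to P7 there were 5 (20.8%), beside 1.83% of all genes, with 1 higher (0.989%) and 4 lower (0.845%). From P7 to P15 there were 18 (75%), beside 25.5% of all genes, with 10 higher (13.4%) and 8 lower (12.1%). Between P15 and P0 there were again 18 (75%), beside 23.6%, with 10 higher (12.1%) and 8 lower (11.4%). By the adjusted p alone, 21, 17, 22 and 24 members passed in the 4 comparisons, beside 68.7%, 58.2%, 86.4% and 86.2% of all genes. The median absolute difference of the members was 0.75, 0.43, 1.75 and 1.73 in the same order, against 0.23, 0.17, 0.55 and 0.51 over all genes tested. The signed medians lay near 0 in the first 3 comparisons (-0.01, 0.16 and 0.14, where the first is 0.03 with MMP2, listed at 0 in P0, ranked as the largest rise) and at 0.40 between P15 and P0, where all genes had a median of 0.04. For P15 against P0 the families differed in sign, with a median of 1.35 over the 11 MMP genes, -0.37 over the 9 ADAMTS genes and -1.52 over the 4 TIMP genes. The size of the TIMP median rests in part on TIMP4, listed at 0 in P15, whose difference is set by the added 1. The highest phase mean was in P15 for 12 members (50%, against 43.5% of all genes) and in P7 for 5 (20.8%, against 16.2%). It was in P0 for 5 (20.8%, against 20.1%) and in P3 for 2 (8.33%, against 20.1%). ADAMTS16 and TIMP1 were the tested members called in none of the 4 comparisons, and the share of all genes called in none was not counted. Successive steps share the libraries of the phase between them, and P15 against P0 shares libraries with P3 against P0 and P15 against P7, so these comparisons are not independent. ADAMTS5, MMP2 and MMP11 reached a mean above 1 CPM only through their highest phase, so that these 3 were tested because they differed between phases.

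**Figure D1:**
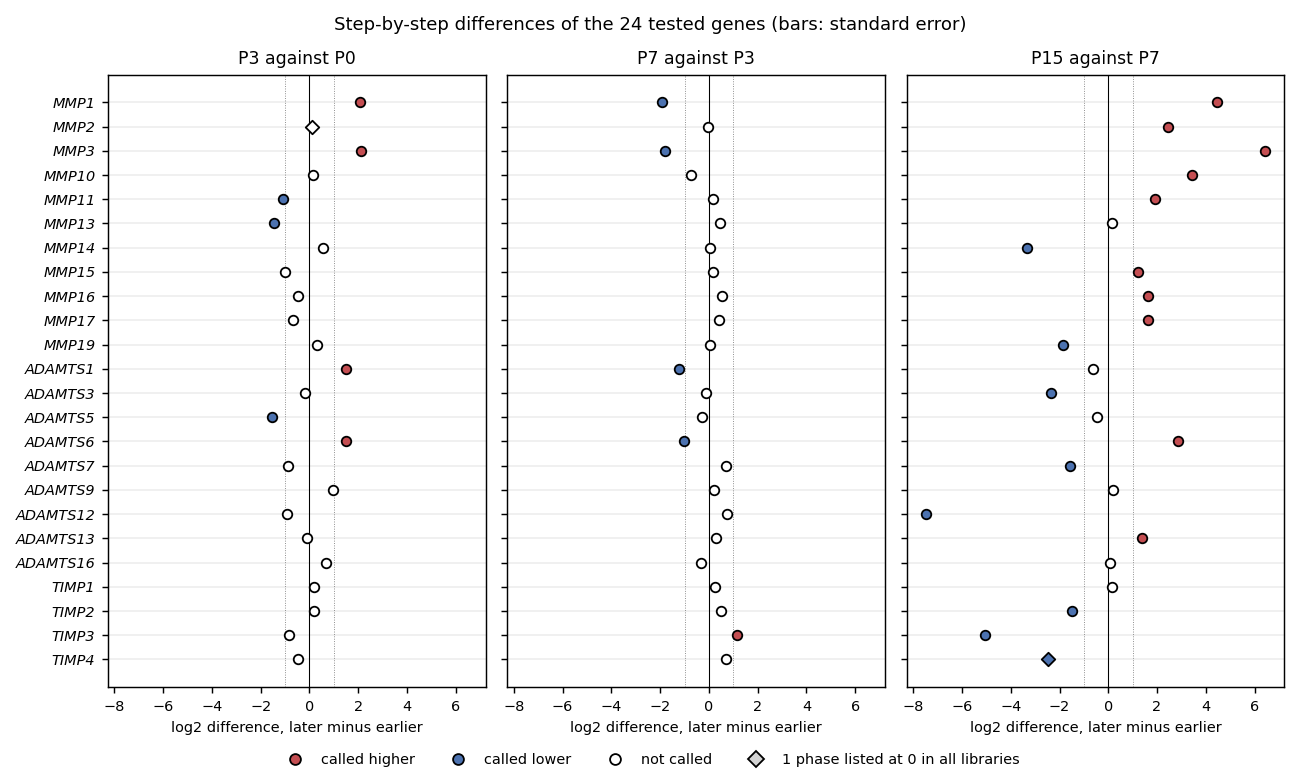
Log2 differences of log2(CPM + 1) for the 24 tested genes at each step (P3 against P0, P7 against P3, P15 against P7), later minus earlier phase, with 4 libraries per phase. Points are limma estimates and bars their standard errors, mostly smaller than the points, and diamonds mark genes with a phase listed at 0 in all its libraries, whose difference is set by the added 1. The largest steps stand in the right panel, from -7.50 for ADAMTS12 to 6.41 for MMP3, and MMP1, MMP3 and ADAMTS6 change side at each step. ADAMTS12 lay near the limit of counting at P15, so the size of its step there is also set largely by the added 1.

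Among the collagenases, which cut fibrillar collagen, MMP1 (interstitial collagenase) rose, fell and rose again. MMP1 measured 2.64, 3.31, 2.80 and 2.76 in the P0 libraries, 5.03, 4.97, 4.90 and 4.94 at P3, 2.94, 3.05, 3.17 and 2.96 at P7 and 7.63, 7.59, 7.19 and 7.45 at P15. The P7 libraries lay within the range of P0, and P3 and P15 each lay apart from all other phases. MMP1 rose by 2.08 (SE 0.10, limma with Benjamini-Hochberg adjustment, adjusted p = 1.4e-14) from P0 to P3, fell by 1.93 (SE 0.10, adjusted p = 1.9e-13) to P7 and rose by 4.44 (SE 0.10, adjusted p = 4.8e-22) to P15. Its mean level went from 6.47 ± 1.66 CPM (SD, n = 4 libraries) at P0 to 177 ± 23.5 CPM at P15.

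MMP13 (collagenase 3) took another course. MMP13 measured 2.95, 3.31, 3.11 and 2.92 at P0, 1.46, 1.58, 1.51 and 1.87 at P3, 2.11, 2.00, 2.12 and 2.01 at P7 and 2.33, 2.19, 1.94 and 2.32 at P15. P0 was highest and P3 lowest, and P7 and P15 overlapped between them. MMP13 fell by 1.47 (SE 0.11, limma adjusted p = 1.2e-11) from P0 to P3, and its later steps stayed under the size threshold, with a difference of -0.88 (SE 0.11) between P15 and P0. The neutrophil collagenase MMP8 was not tested and never exceeded 0.14.

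Of the gelatinases, which cut denatured collagen and basement membrane collagen, MMP2 appeared at P15. MMP2 was listed at 0 in the 4 libraries of P0, at 0.07, 0.00, 0.20 and 0.08 at P3, at 0.14, 0.06, 0.00 and 0.00 at P7 and at 2.63, 2.43, 2.51 and 2.39 at P15. Only the P15 libraries stood clear of the limit of counting. It rose by 2.44 (SE 0.09, limma adjusted p = 4.7e-18) from P7 to P15, reaching 4.63 ± 0.419 CPM (SD, n = 4), and no fold is given against P0, where it was listed at 0. MMP9 stayed below 1 CPM on average and was highest at P3, with 0.95, 1.07, 1.14 and 0.87, against 0.00 to 0.45 at P0, 0.73 to 0.82 at P7 and 0.22 to 0.41 at P15.

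The stromelysins MMP3 and MMP10 cut proteoglycans, laminin and other matrix proteins and can activate other MMP proenzymes. MMP3 measured 0.51, 0.73, 1.07 and 0.59 at P0, 2.88, 2.98, 2.63 and 2.79 at P3, 1.00, 1.21, 0.81 and 0.98 at P7 and 7.46, 7.47, 7.22 and 7.48 at P15. As for MMP1, the P7 libraries overlapped those of P0. MMP3 rose by 2.10 (SE 0.11, limma adjusted p = 2.3e-14) at P3, fell by 1.82 (SE 0.11, adjusted p = 1e-12) at P7 and rose by 6.41 (SE 0.11, adjusted p = 5.9e-25) at P15. This rise from 1.01 ± 0.231 to 169 ± 14.1 CPM (SD, n = 4) was the largest of the 24 genes in that step.

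MMP10 measured 1.25, 1.52, 1.11 and 0.96 at P0, 1.46, 1.40, 1.27 and 1.34 at P3, 0.61, 0.57, 0.76 and 0.64 at P7 and 4.21, 4.15, 3.65 and 4.25 at P15. P0 and P3 overlapped, P7 was lowest and P15 stood apart. The rise from P7 to P15 was 3.42 (SE 0.12, limma adjusted p = 1.8e-18), and the difference between P3 and P0 was 0.16 (SE 0.12, adjusted p = 0.25). Unlike its neighbour genes MMP1 and MMP3, MMP10 was thus not called at P3, but the difference between these genes was not tested.

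MMP11 (stromelysin 3), which is activated inside the cell by furin, measured 1.51, 1.65, 1.31 and 1.69 at P0, 0.56, 0.43, 0.52 and 0.37 at P3, 0.51, 0.75, 0.71 and 0.57 at P7 and 2.66, 2.76, 2.36 and 2.43 at P15. P3 and P7 overlapped at the bottom, and P15 was highest. MMP11 fell by 1.07 (SE 0.11, limma adjusted p = 4e-09) from P0 to P3 and rose by 1.92 (SE 0.11, adjusted p = 1.6e-14) from P7 to P15. Its difference between P15 and P0 was 1.01 (SE 0.11, adjusted p = 3.7e-09), at the edge of the size threshold, and it dropped to 0.88 after quantile normalization, to 0.94 without replicate 3 of P0 or replicate 2 of P15 and to 0.98 without replicate 1 of P15.

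MMP19, a secreted MMP with broad substrates, measured 1.75, 1.49, 1.60 and 1.59 at P0, 1.78, 1.93, 1.91 and 2.07 at P3, 2.09, 2.14, 1.88 and 1.74 at P7 and 0.20, 0.00, 0.15 and 0.06 at P15. P7 overlapped P0 and P3, and the P15 libraries were near or under the limit of counting. It fell by 1.86 (SE 0.10, limma adjusted p = 8.9e-15) from P7 to P15. Of the other secreted members, the matrilysin MMP7 never exceeded 0.08 and MMP12 (macrophage elastase), MMP20 (enamelysin) and MMP21 never exceeded 0.07, and MMP28 (epilysin) reached 0.49 in 1 P15 library.

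The membrane-anchored MMPs split in direction at P15. MMP14 (MT1-MMP), a collagenase of the cell surface that also activates the MMP2 proenzyme, measured 7.93, 8.01, 7.91 and 7.94 at P0, 8.49, 8.56, 8.49 and 8.49 at P3, 8.56, 8.44, 8.60 and 8.54 at P7 and 5.09, 5.30, 5.29 and 5.18 at P15. P3 and P7 overlapped above P0, and P15 was lowest. MMP14 fell by 3.32 (SE 0.04, limma adjusted p = 1.8e-27) from P7 to P15, from 370 ± 17.3 to 36.2 ± 2.54 CPM (SD, n = 4). In these same P15 libraries MMP2 was at its highest.

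The other 3 tested membrane-anchored genes were lowest at P3 and highest at P15. MMP15 (MT2-MMP) measured 4.20, 4.18, 4.10 and 4.30 at P0, 3.32, 3.08, 3.13 and 3.27 at P3, 3.43, 3.18, 3.43 and 3.38 at P7 and 4.61, 4.57, 4.56 and 4.57 at P15. Its P3 and P7 libraries overlapped below P0, and its P15 libraries lay above all others. The rise from P7 to P15 was 1.22 (SE 0.07, limma adjusted p = 1.8e-14), and the fall from P0 to P3 came to 1.00 only when rounded, so that it was not called.

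MMP16 (MT3-MMP) measured 3.91, 3.62, 3.72 and 3.60 at P0, 3.17, 3.18, 3.27 and 3.36 at P3, 3.72, 3.75, 3.79 and 3.93 at P7 and 5.45, 5.35, 5.62 and 5.32 at P15. P0 and P7 overlapped, with P3 below and P15 above them. MMP17 (MT4-MMP), which is held by a lipid anchor, measured 3.78, 3.82, 3.67 and 3.85 at P0, 3.21, 3.13, 3.02 and 3.05 at P3, 3.39, 3.37, 3.64 and 3.60 at P7 and 5.16, 5.18, 5.12 and 5.07 at P15. No phases of MMP17 overlapped. From P7 to P15, MMP16 rose by 1.64 (SE 0.08, limma adjusted p = 4.3e-16) and MMP17 by 1.63 (SE 0.07, adjusted p = 5.4e-17). MMP24 and MMP25 lay between 0.11 and 0.92 in all libraries, and MMP23B was listed at 0 in 15 of 16.

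**Figure D2:**
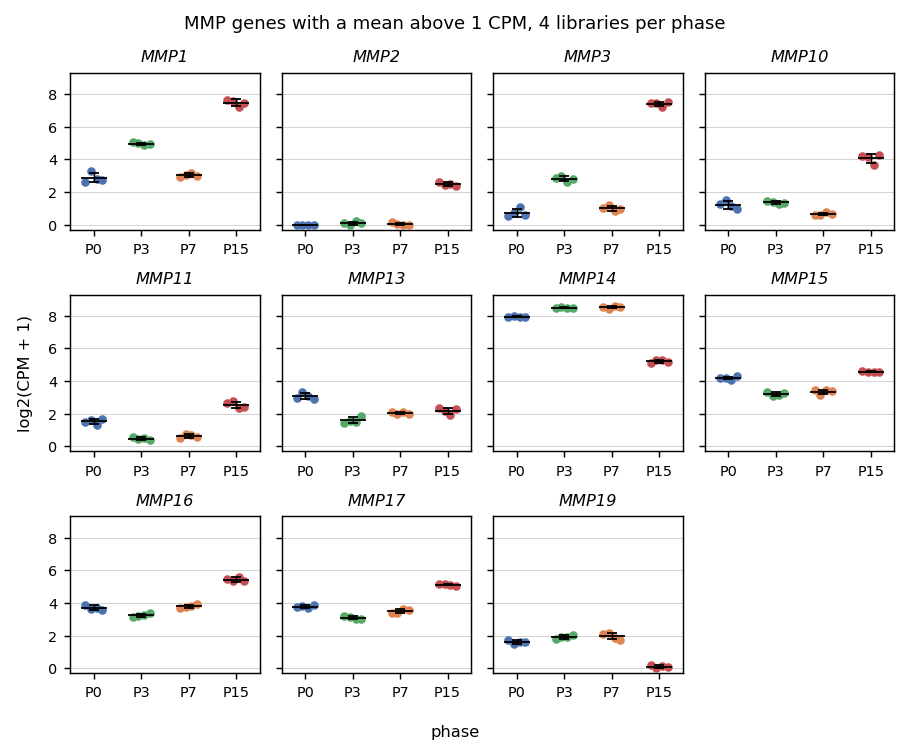
Expression of the 11 tested MMP genes as log2(CPM + 1) (y axis) in each of the 4 libraries of phases P0, P3, P7 and P15 (x axis). Points are libraries and black marks the mean with its SD, and the P15 points lie between 7.19 and 7.63 for MMP1 and between 7.22 and 7.48 for MMP3, above every other library, while MMP14 drops to between 5.09 and 5.30.

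Among the ADAMTS proteoglycanases, which cut versican and aggrecan, ADAMTS1 peaked at P3. ADAMTS1 measured 5.91, 6.14, 5.86 and 5.91 at P0, 7.42, 7.44, 7.42 and 7.46 at P3, 6.20, 6.17, 6.29 and 6.24 at P7 and 5.62, 5.54, 5.62 and 5.55 at P15. No phases overlapped, with P3 highest and P15 lowest. It rose by 1.48 (SE 0.05, limma adjusted p = 1.8e-18) from P0 to P3 and fell by 1.21 (SE 0.05, adjusted p = 3.3e-16) from P3 to P7.

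ADAMTS5 (aggrecanase 2) lies next to ADAMTS1 on chromosome 21 and on the same strand (ADAMTS1 at 26835755 to 26845409, ADAMTS5 at 26917922 to 26967088, GENCODE version 44 on GRCh38), and it went the other way at P3. ADAMTS5 measured 2.62, 2.75, 2.74 and 2.52 at P0, 1.00, 1.02, 1.32 and 1.09 at P3, 0.59, 0.88, 0.85 and 0.90 at P7 and 0.32, 0.41, 0.35 and 0.29 at P15. Each phase lay below the one before it without overlap. It fell by 1.55 (SE 0.10, limma adjusted p = 1.1e-12) from P0 to P3 and by 2.31 (SE 0.10, adjusted p = 7.1e-17) from P0 to P15.

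ADAMTS9, a versican-cutting protease, measured 4.21, 4.15, 4.47 and 4.39 at P0, 5.28, 5.19, 5.30 and 5.28 at P3, 5.52, 5.48, 5.40 and 5.45 at P7 and 5.54, 5.67, 5.74 and 5.63 at P15. Each phase lay above the one before it, and no single step was called. The sum of the steps was a rise of 1.34 (SE 0.06, limma adjusted p = 1.7e-16) from P0 to P15. The proteoglycanases ADAMTS4 and ADAMTS20 never exceeded 0.22, ADAMTS15 reached 0.96 at P15, and ADAMTS8 was listed at 0 in all 16 libraries.

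Of the procollagen N-proteinases, which trim the amino ends of fibrillar procollagens, only ADAMTS3 passed the filter. ADAMTS3 measured 4.55, 4.44, 4.78 and 4.57 at P0, 4.46, 4.36, 4.41 and 4.33 at P3, 4.21, 4.36, 4.35 and 4.11 at P7 and 2.03, 1.76, 1.97 and 1.91 at P15. The first 3 phases overlapped in part, and P15 lay below them. ADAMTS3 fell by 2.34 (SE 0.08, limma adjusted p = 3.3e-19) from P7 to P15. ADAMTS2, which does the same for type I collagen, was just below the filter at a mean of 0.789 CPM (MMP2, just above it, had 1.18 CPM) and was highest at P7, between 1.28 and 1.49. ADAMTS14 was listed at 0 in P0 and P7, at 0.07 in 1 P3 library, and at 0.89, 0.77, 0.42 and 0.34 at P15.

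ADAMTS7 and ADAMTS12, which share a domain structure and can cut cartilage oligomeric matrix protein, followed the same order of phases. ADAMTS12 measured 7.85, 7.78, 7.83 and 7.85 at P0, 6.97, 6.86, 6.87 and 6.93 at P3, 7.66, 7.67, 7.61 and 7.68 at P7 and 0.44, 0.07, 0.00 and 0.09 at P15. No phases overlapped, with P3 below P0 and P7, and at P15 it was nearly gone, with replicate 1 the only library above the limit of counting. ADAMTS12 fell by 7.50 (SE 0.06, limma adjusted p = 3.4e-31) from P7 to P15, from 201 ± 4.31 to 0.118 ± 0.162 CPM (SD, n = 4). The size of this fall is set largely by the added 1, and the difference ranged from -10.10 to -5.33 over the pseudocounts and other alternatives. The steps before this fall were a difference of -0.92 at P3 and 0.75 at P7, under the size threshold.

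ADAMTS7 measured 3.51, 3.72, 3.56 and 3.57 at P0, 2.41, 2.92, 2.76 and 2.79 at P3, 3.46, 3.39, 3.32 and 3.50 at P7 and 1.88, 1.82, 1.83 and 1.86 at P15. It too was highest at P0 and lowest at P15, with a dip at P3 and no overlap between phases. The fall from P7 to P15 was 1.57 (SE 0.09, limma adjusted p = 1.7e-14). ADAMTS7 has pseudogene copies, and what was done with multimapping reads is not given in the sources used here, so its level is uncertain.

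ADAMTS6, which is close in sequence to ADAMTS10, had the pattern of MMP1 and MMP3. ADAMTS6 measured 3.23, 3.25, 3.25 and 3.34 at P0, 4.83, 4.78, 4.70 and 4.71 at P3, 3.81, 3.82, 3.63 and 3.66 at P7 and 6.63, 6.55, 6.57 and 6.59 at P15. No phases overlapped, and P7 stayed above P0. It rose by 1.49 (SE 0.05, limma adjusted p = 2e-17) at P3, fell by 1.03 (SE 0.05, adjusted p = 7.6e-14) at P7 and rose by 2.85 (SE 0.05, adjusted p = 3.7e-24) at P15. Without replicate 3 of P7 the middle step was -0.99 and was no longer called.

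ADAMTS13, the protease that cuts von Willebrand factor, measured 1.20, 1.64, 0.84 and 1.22 at P0, 0.98, 1.26, 1.18 and 1.07 at P3, 1.28, 1.67, 1.35 and 1.30 at P7 and 2.73, 2.67, 3.12 and 2.60 at P15. P3 and P7 each overlapped P0, and P15 lay above them. ADAMTS13 rose by 1.38 (SE 0.14, limma adjusted p = 1.4e-09) from P7 to P15. ADAMTS16 lay between 3.12 and 3.30 at P0 and between 3.52 and 3.93 later, a difference of 0.68 at P3 that was under the size threshold. ADAMTS10 (highest at P15), ADAMTS17 (highest at P7), ADAMTS18 and ADAMTS19 were below the filter, and none of their values exceeded 1.19.

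The 4 inhibitors diverged at P15. TIMP3, which binds to the matrix and also inhibits ADAM and ADAMTS enzymes, measured 5.34, 5.31, 5.45 and 5.32 at P0, 4.65, 4.47, 4.55 and 4.47 at P3, 5.60, 5.73, 5.67 and 5.69 at P7 and 0.77, 0.60, 0.59 and 0.48 at P15. No phases overlapped, and TIMP3 was highest at P7. It rose by 1.14 (SE 0.06, limma adjusted p = 3.6e-13) from P3 to P7 and fell by 5.06 (SE 0.06, adjusted p = 1.9e-27) from P7 to P15, from 50 ± 1.91 to 0.53 ± 0.129 CPM (SD, n = 4).

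TIMP4 measured 2.22, 2.17, 2.39 and 2.24 at P0, 1.94, 1.88, 1.65 and 1.62 at P3 and 2.27, 2.67, 2.42 and 2.54 at P7, and it was listed at 0 in the 4 libraries of P15. P0 and P7 overlapped, and P3 lay below them. TIMP4 was called lower at P15 against P7 (limma adjusted p = 1.4e-17), and no fold is given against a phase listed at 0. TIMP2, which inhibits MMPs and takes part with MMP14 in activating MMP2, measured 7.58, 7.55, 7.50 and 7.53 at P0, 7.74, 7.68, 7.79 and 7.69 at P3, 8.23, 8.21, 8.22 and 8.22 at P7 and 6.73, 6.80, 6.76 and 6.73 at P15. Its level rose without overlap up to P7 and was lowest at P15. The fall from P7 to P15 was 1.47 (SE 0.03, limma adjusted p = 3.2e-23), and that from P0 to P15 was 0.79 (SE 0.03, adjusted p = 1e-17), under the size threshold.

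TIMP1 went the other way by small steps. It lay between 7.47 and 7.72 at P0, 7.69 and 7.84 at P3, 7.88 and 8.05 at P7 and 8.06 and 8.21 at P15. Its difference between P15 and P0 was 0.59 (SE 0.05, limma adjusted p = 4.6e-11), under the size threshold.

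**Figure D3:**
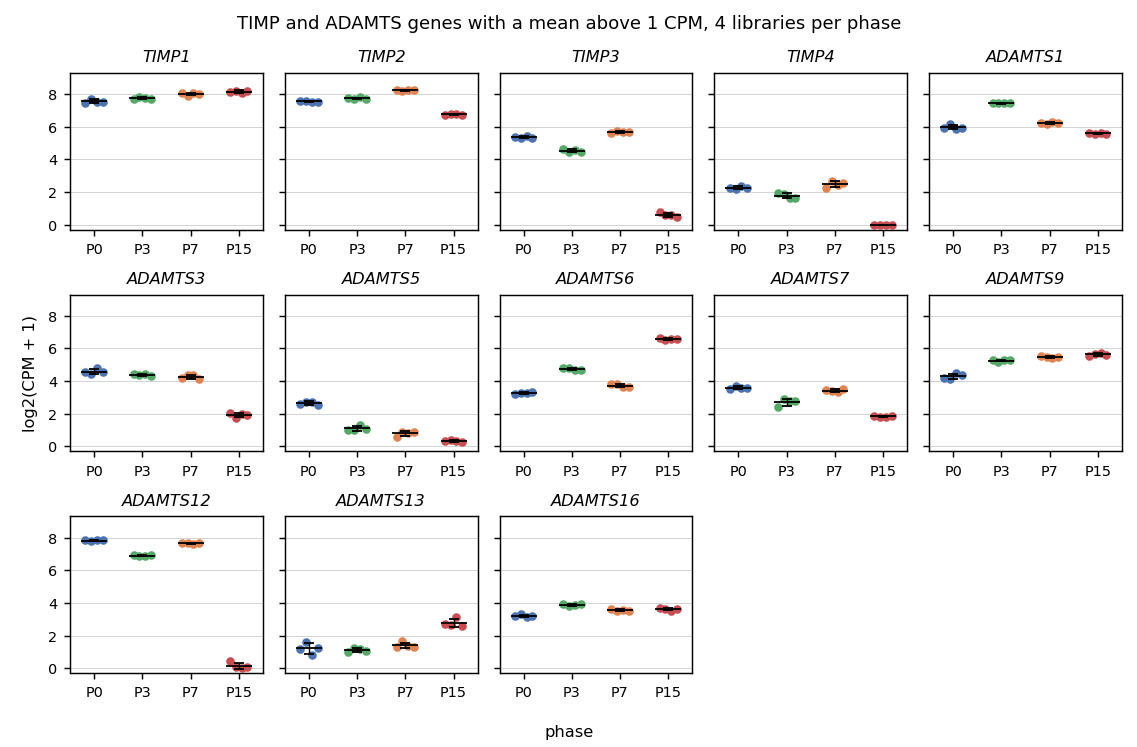
Expression of the 4 TIMP and 9 tested ADAMTS genes as log2(CPM + 1) (y axis) in each of the 4 libraries of phases P0, P3, P7 and P15 (x axis). Points are libraries and black marks the mean with its SD, and at P15 the points of TIMP3, TIMP4 and ADAMTS12 lie at or below 0.77 while those of ADAMTS6 lie between 6.55 and 6.63.

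Levels of different genes were compared per length, as CPM per kilobase of exon in GENCODE version 44. On this scale the 21 MMP genes summed to 68.6 ± 2.71 at P0 (SD, n = 4 libraries), 100 ± 2.37 at P3, 91.8 ± 4.1 at P7 and 194 ± 17.2 at P15, and the P15 libraries (169 to 205) lay above all others. MMP14 made up 77.6 ± 0.687% of the sum at P0 and 87.3 ± 0.352% at P7, but 4.08 ± 0.595% at P15. At P15 MMP3 held 47.1 ± 1.09% and MMP1 held 33.2 ± 1.72%, so that the MMP message changed from mostly a membrane-anchored gene to mostly secreted ones. Which of MMP3 and MMP1 leads rests on the exon lengths used (1854 and 2738 bases). In CPM alone MMP3 was at 169 ± 14.1 and MMP1 at 177 ± 23.5 at P15. Together MMP1, MMP3 and MMP10 took 5.06 ± 1% of the sum at P0, 15.1 ± 0.633% at P3, 3.81 ± 0.314% at P7 and 85 ± 1.56% at P15.

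The 19 ADAMTS genes summed to 41.9 ± 0.203 CPM per kilobase at P0, 49.1 ± 0.554 at P3, 43.1 ± 0.269 at P7 and 26.5 ± 0.52 at P15 (SD, n = 4). The leading gene differed between phases. ADAMTS12 held 56.2 ± 1.48% of the sum at P0 and 48.5 ± 0.763% at P7, ADAMTS1 held 48 ± 0.721% at P3, and ADAMTS6 held 41.9 ± 0.952% at P15.

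The 4 TIMP genes summed to 172 ± 9.88 CPM per kilobase at P0, 188 ± 6.87 at P3, 239 ± 9.06 at P7 and 213 ± 8.87 at P15 (SD, n = 4). TIMP1 was the largest part in each phase, with 75.7 ± 1.51% at P0 and 91.8 ± 0.342% at P15. TIMP2 fell from 20.1 ± 0.69% of the sum at P7 to 8.11 ± 0.339% at P15. The summed level of inhibitor RNA at P15 lay within the range of the earlier phases although TIMP3 and TIMP4 were close to or at 0. These sums are descriptions of RNA and carry no test.

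**Figure D4:**
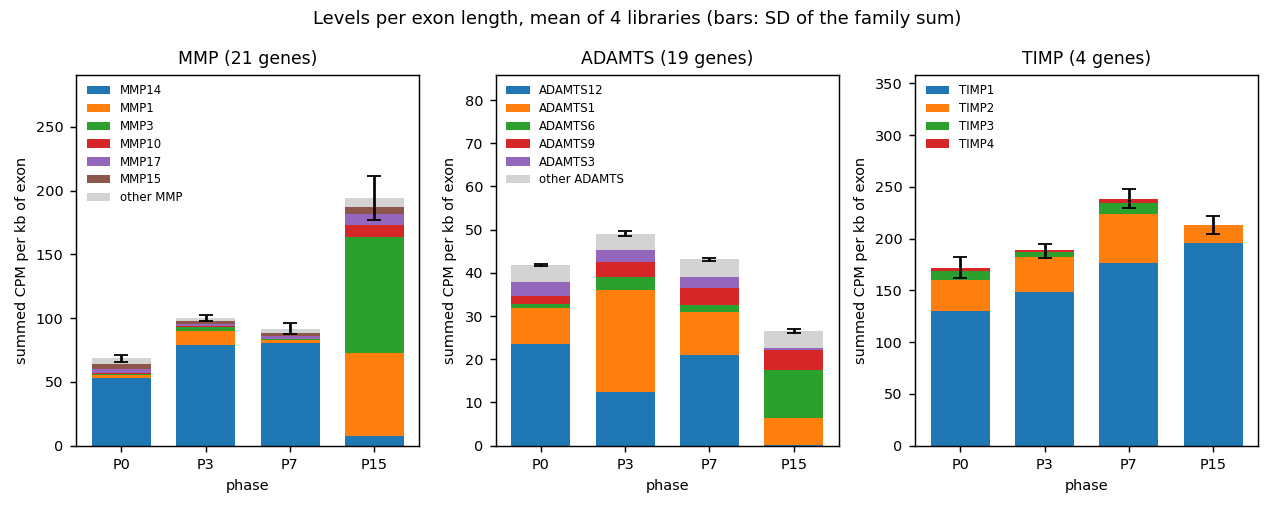
Summed levels of the 21 MMP, 19 ADAMTS and 4 TIMP genes in CPM per kilobase of exon (y axis) at phases P0, P3, P7 and P15 (x axis), as means of 4 libraries. Colors are the leading genes, grey the remaining genes of the family and error bars the SD of the family sum, and MMP14 (77.6% of the MMP sum at P0) gives way to MMP3 and MMP1 (47.1% and 33.2%) at P15.

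Of the 44 genes, 8 lie side by side on chromosome 11 at 11q22, between 102520508 and 102955732 (435 kb, GENCODE version 44 on GRCh38), and all are on the minus strand in the order MMP7, MMP20, MMP8, MMP10, MMP1, MMP3, MMP12 and MMP13. The 3 genes that rose at P15 are neighbours in this order, from MMP10 (102770502 to 102780628) over MMP1 (102789401 to 102798160) to MMP3 (102835801 to 102843609). On either side of them the members behaved differently. MMP13 was highest at P0, and MMP7, MMP20, MMP8 and MMP12 stayed at or under 0.14 in every library.

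Of 13 listed genes around this cluster, 12 had a row (CFAP300 under its RefSeq synonym C11orf70) and 9 were tested. Under the limma test, 0 of the 9 were called at P3 or P7, beside 4.46% and 1.83% of all genes. There, 7 and 3 had an unadjusted p below 0.05, and the same 7 and 3 passed the adjusted p, beside 68.7% and 58.2% of all genes. From P7 to P15, 2 of the 9 were called higher, beside 13.4% of all genes. At P15 against P0, 1 of the 9 was called, beside 23.6% of all genes. This was BIRC3, an inhibitor of apoptosis protein whose gene lies beyond TMEM123 on the MMP7 side, with phase means of 5.68, 6.10, 5.11 and 8.74 and a rise of 3.06 (SE 0.05, limma adjusted p = 6.6e-26) from P0 to P15. Its neighbour BIRC2 went from 7.05 to 7.80 and TMEM123, the nearest tested gene, from 8.86 to 8.90. On the other side, DCUN1D5 went from 6.19 to 6.74. PDGFD, a platelet-derived growth factor, rose by 1.40 (SE 0.10, limma adjusted p = 3.9e-12) from P7 to P15. WTAPP1, a pseudogene on the opposite strand, shares exon bases with MMP1 and MMP3, and since the strand setting of the counting is not given in the sources used here their reads cannot be told apart there. WTAPP1 itself had phase means of 0.04, 0.02, 0.00 and 0.30.

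**Figure D5:**
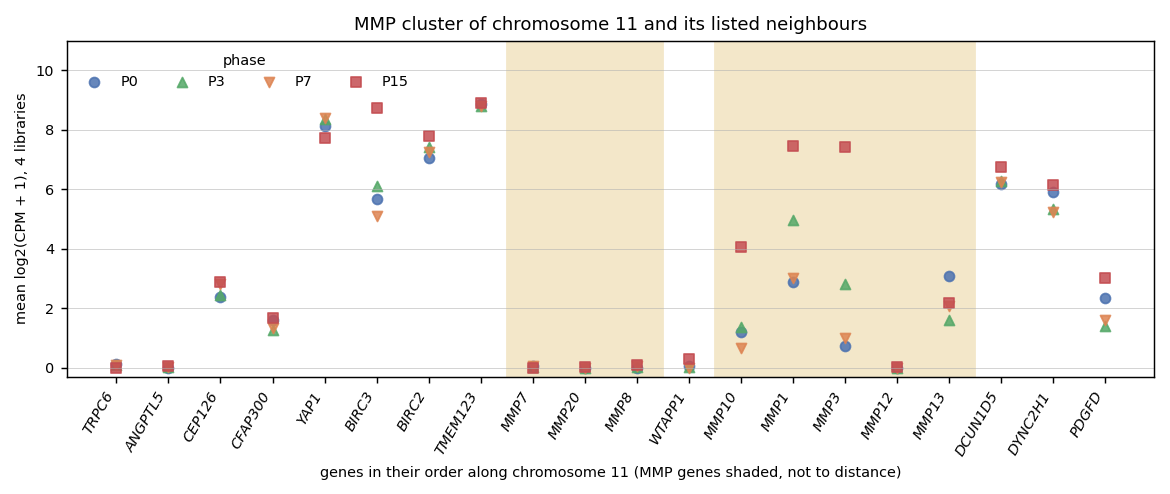
Mean log2(CPM + 1) of 4 libraries (y axis) at each phase for 20 genes in their order along chromosome 11 (x axis, not to distance), with the MMP genes shaded. MMP10, MMP1 and MMP3 stand highest at P15 (4.06, 7.46 and 7.41), MMP13 stands highest at P0 (3.07), and of the neighbours BIRC3 has the widest spread of phase means.

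RefSeq promoters on GRCh38.p14, taken as 250 bases before and 50 after the start, were at hand for 25 of the 44 members. The other 19 had no entry and were not searched, MMP1, MMP3, MMP2, MMP9 and MMP13 among them. TGANTCA was searched with any base at N, which is wider than the usual core bound by AP-1, where N is C or G. AP-1 is made of the FOS and JUN factors long studied at MMP promoters. The searched pattern reads the same on both strands and was found in 7.71% of 35116 promoters. How many of these hold the narrower AP-1 core was not counted. TATAAA was found on either strand in 11.5%, and both in 1.31%. Of the 25 members, 4 held TGANTCA (MMP10, MMP7, MMP20 and ADAMTS12), 6 held TATAAA (MMP10, MMP7, MMP20, MMP8, MMP21 and ADAMTS10) and 3 held both. The 150 bases before the start are shown for a gene of the cluster that rose at P15 (MMP10), a gene of the same cluster that stayed near 0 (MMP7), and a protease and an inhibitor that fell at P15 (ADAMTS12 and TIMP3), each 5′ to 3′ with TGANTCA and TATAAA in capitals. They lie on the minus strand at chr11:102780629-102780778 (MMP10), chr11:102530748-102530897 (MMP7) and chr5:33891991-33892140 (ADAMTS12), and on the plus strand at chr22:32801555-32801704 (TIMP3).
MMP10: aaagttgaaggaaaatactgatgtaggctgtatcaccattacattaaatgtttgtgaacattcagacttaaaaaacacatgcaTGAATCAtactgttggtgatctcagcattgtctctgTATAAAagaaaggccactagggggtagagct
MMP7: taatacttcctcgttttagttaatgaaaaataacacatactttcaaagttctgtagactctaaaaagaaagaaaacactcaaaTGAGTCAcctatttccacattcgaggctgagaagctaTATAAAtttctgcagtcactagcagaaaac
ADAMTS12: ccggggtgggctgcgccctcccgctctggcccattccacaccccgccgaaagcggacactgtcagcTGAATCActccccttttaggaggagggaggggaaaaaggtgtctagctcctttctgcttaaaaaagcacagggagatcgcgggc
TIMP3: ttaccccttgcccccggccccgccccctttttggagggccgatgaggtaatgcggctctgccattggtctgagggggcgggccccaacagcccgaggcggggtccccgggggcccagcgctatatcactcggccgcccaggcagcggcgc

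MMP10 and MMP7 have the same spacing, with TGANTCA beginning 67 bases before the start in both and TATAAA 31 and 30 bases before it. The bases read TGAATCA in MMP10 and TGAGTCA in MMP7, so that only MMP7 has the usual AP-1 core there. The RNA of these genes differed, at 4.06 ± 0.28 for MMP10 and listed at 0 in all 4 libraries for MMP7 at P15. ADAMTS12 holds TGANTCA, read as TGAATCA, 84 bases before its start, and it fell at P15 where MMP10 rose. The shown TIMP3 bases hold neither. A match of letters is a description of the sequence and no evidence of binding, and the absence of these letters says nothing about the factors.

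Several genes that act with the MMPs were also called. Of 18 listed activators, inhibitors and binding partners, 13 were tested, and 2 were called higher at P3 (beside 1.95% of all genes called higher), 2 lower at P7 (0.845%), 4 higher and 3 lower at P15 against P7 (13.4% and 12.1%), and 5 higher and 2 lower at P15 against P0 (12.1% and 11.4%). TFPI2, a secreted inhibitor of plasmin and other proteases found in the matrix, had phase means of 6.46, 8.52, 7.17 and 11.85, a rise of 2.05 (SE 0.04, limma adjusted p = 1.2e-21) at P3, a fall of 1.34 (SE 0.04, adjusted p = 1.3e-17) at P7 and a rise of 4.68 (SE 0.04, adjusted p = 3e-30) at P15. This is the order of phases seen for MMP1 and MMP3, although TFPI2 at P7 lay above P0. PLAUR, the receptor of urokinase, rose by 2.00 (SE 0.04, limma adjusted p = 2e-21) at P3 and by 1.07 (SE 0.04, adjusted p = 2.5e-17) from P7 to P15. Its ligand PLAU, which makes the plasmin that activates several MMPs, rose by 1.24 (SE 0.03, limma adjusted p = 7.7e-21) from P7 to P15. LCN2, which binds MMP9, went from 0.20 at P0 to 2.95 at P15, and LRP1, a receptor that takes up proteases, from 5.82 to 6.96.

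The 3 partners called lower from P7 to P15 were SPOCK1, SPOCK3 and CD44. SPOCK1 and SPOCK3 are proteoglycans of the matrix, and they fell by 6.17 (SE 0.08, limma adjusted p = 1.7e-27) and 1.18 (SE 0.11, adjusted p = 6e-10). CD44, a hyaluronan receptor that can hold MMPs at the cell surface, had phase means of 10.26, 10.46, 10.57 and 9.40 and fell by 1.17 (SE 0.03, limma adjusted p = 2.7e-22). The proenzyme convertase PCSK6 fell by 1.00 (SE 0.09, adjusted p = 3.7e-10) from P0 to P15. RECK, a membrane-anchored inhibitor of MMPs, had a mean of 3.96 at P0 and 3.94 at P15 (limma adjusted p = 0.77). FURIN, which activates MMP14 and MMP11, differed by 0.25 and BSG, an inducer of MMPs, by 0.71 between P15 and P0, both under the size threshold.

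Of 10 listed ADAMTS substrates, only 2 were tested. Both were called at P15 against P7 and at P15 against P0 (1 higher and 1 lower), beside 25.5% and 23.6% of all genes. VCAN (versican) had phase means of 5.21, 5.85, 3.63 and 6.63, falling by 2.22 (SE 0.06, limma adjusted p = 1.5e-18) at P7 and rising by 3.00 (SE 0.06, adjusted p = 6.5e-23) at P15. RELN (reelin), which ADAMTS3 can cut, fell by 4.62 (SE 0.09, limma adjusted p = 1.9e-23) from P7 to P15, the step in which ADAMTS3 fell.

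Markers of the labelled cell type moved over the same phases. The 15 urothelial and epithelial markers summed to between 2178 and 2251 CPM at P0, 2419 and 2553 at P3, 1775 and 1921 at P7 and 695 and 772 at P15, and KRT5, KRT20, UPK1B, UPK3A and CDH1 were at or near 0 in every phase. Of the 7 tested, 6 were called lower at P15 against P0, such as KRT7 with -6.26, beside 11.4% of all genes. KRT18 had a mean of 8.88 at P0 and 9.31 at P15, and the untested UPK1A had 0.10 and 1.57. The 8 fibroblast markers summed to between 7.26 and 8.45 CPM at P0, 1.78 and 6.47 at P3, 5.57 and 6.54 at P7 and 46.6 and 51.7 at P15, where COL3A1 had a mean of 4.51 and COL1A1 of 4.64, with DCN listed at 0 and LUM, PDGFRA and THY1 at means of 0.09, 0.17 and 0.03. The 5 endothelial markers summed to 6.05 to 7.95 CPM at P0 and at most 1.09 later, mostly through CDH5, whose phase means were 2.74, 0.28, 0.00 and 0.18, while KDR, TEK and VWF never had a phase mean above 0.14. The 7 leukocyte markers found summed to 6.55 to 8.93 CPM at P0, 2.05 to 2.37 at P3, 5.58 to 6.40 at P7 and 0.114 to 0.527 at P15. Nearly all of the sum at P0, P3 and P7, but not at P15, was CD14, whose phase means were 2.96, 1.56, 2.77 and 0.08. None of the other 6 had a phase mean above 0.38, and PTPRC was listed at 0 in P0, P3 and P7. The part of these shifts in the MMP, ADAMTS and TIMP differences was not tested.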

How the data were processed

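RNA of 16 libraries (4 each at P0, P3, P7 and P15) was sequenced as paired-end reads. The authors aligned them with STAR 2.6.1a to GRCh38 (names from the submitters' processing notes), counted them on genes with featureCounts and deposited a table of log2(CPM + 1) with 2 decimals for 39007 symbols. Strand, multimapping and annotation release are not given in the sources used here. The methods' quantile normalization and median centring are not carried by the deposited values. All 16 columns of libraries were used.

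The deposited log2 values were fitted in limma 3.58.1 (R 4.3.3) with 1 coefficient per phase and a prior variance that follows the mean level. All 13249 genes above 1 CPM on average entered the fit and the Benjamini-Hochberg adjustment. This procedure was tested on simulated data. Replicate numbers were taken from the sample descriptions and no block was used. Every member is accounted for, tested members are named in the order of their roles, and of partner and neighbour lists the genes called, with a few others given for contrast. The members and lists were chosen with earlier results of these data known. Tables were made in Python 3.11.15 with pandas 2.3.3 and figures with matplotlib 3.10.9. The values were recomputed with pseudocounts of 0.1 and 5, with filters of 0.2 CPM, none or 1 CPM in 4 libraries, with quantile normalization, equal medians, no variance trend, pairs of phases alone, no fold threshold, a replicate block and each library left out.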

Additional observations from a re-analysis of the deposited data

Results flagged for a closer look

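Of 96 groups of 4 libraries (24 tested genes in 4 phases), 4 held a library whose gap to the nearest of the others was large against the whole range of the group (Dixon's criterion), where chance gives about 1 in 20, or 4.8. Replicate 3 of P15 was low for MMP3, at 7.22 against 7.46 to 7.48 in the others (gap over range 0.92), and for MMP10, at 3.65 against 4.15 to 4.25 (0.83). It was also the lowest P15 library for MMP1, at 7.19, without passing the criterion. Without this library, the differences between P15 and P0 were 6.75 for MMP3, 2.99 for MMP10 and 4.68 for MMP1, all in the same direction and past the thresholds under limma. Replicate 1 of P7 was low for ADAMTS5, at 0.59 against 0.85 to 0.90 (0.84), and without it the difference between P7 and P3 was -0.23 (limma with Benjamini-Hochberg adjustment, adjusted p = 0.054) in place of -0.30. Replicate 2 of P3 was high for MMP14, at 8.56 against 8.49 in each of the other 3 (1.00), and without it the difference between P3 and P0 was 0.54.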

How the results depend on the processing

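Over 96 pairs of gene and comparison, 2592 differences were computed under all alternatives except the one without a fold threshold. Of these, 2557 stayed called or stayed uncalled, 25 lost the call, 10 gained it and 0 changed sign while passing the adjusted p under limma. Differences that were not called could change sign, as for ADAMTS13 between P3 and P0 (-0.23 to 0.04). They could also cross the adjusted p threshold, as for ADAMTS5 between P7 and P3. With a pseudocount of 5 the calls went from 7 to 3 at P3 against P0 and from 5 to 3 at P7 against P3. They went from 18 to 11 at P15 against P7 and from 18 to 12 at P15 against P0. The larger added value shrinks differences of weak genes. Without a fold threshold the calls were 21 at P3 against P0 and 17 at P7 against P3. The number of genes highest in P3 went from 2 to 5 with a filter of 0.2 CPM and to 6 without a filter, and without a filter 8 were highest in P7 and 22 in P15, since more weak genes entered. Leaving out 1 library at a time gave 7 to 9, 4 to 5, 18 and 17 to 18 calls in the 4 comparisons (P3 against P0, P7 against P3, P15 against P7, P15 against P0). The difference of ADAMTS12 between P15 and P0 ranged from -10.27 to -5.50 over the pseudocounts and the other alternatives, that of MMP3 from 4.94 to 7.85. A replicate block left the counts of calls at 7, 5, 18 and 18. Libraries that share a number did not deviate together (correlations of -0.15 to 0.22, and 5 of 16 libraries closest to their own number), so the numbers were not used as pairs. Genes near the limit of 3 counts, such as ADAMTS12 and MMP19 at P15, have differences set largely by the added 1.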

Other observations

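Relatives of these proteases also changed at P15. Of 12 listed ADAM proteases, which shed proteins from the cell surface, 9 were tested, and 3 were called higher and 2 lower at P15 against P0, beside 23.6% of all genes called in either direction. ADAM17, the main sheddase of TNF, went from 5.75 at P0 to 6.76 at P15 as mean log2(CPM + 1), ADAM22 from 3.18 to 4.63 and ADAM23 from 3.12 to 4.15, while ADAM8 went from 7.24 to 5.37. ADAM12 rose by 1.33 (SE 0.04, limma with Benjamini-Hochberg adjustment, adjusted p = 4.3e-18) from P0 to P3 and fell by 2.69 (SE 0.04, adjusted p = 2.8e-25) from P7 to P15.

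The ADAMTS-like genes code for secreted proteins that resemble ADAMTS enzymes without the protease domain. Of 7 listed, 4 were tested and 3 were called higher at P15 against P0, beside 12.1% of all genes. PAPLN rose by 3.45 (SE 0.09, limma adjusted p = 3.4e-21), ADAMTSL4 by 2.47 (SE 0.10, adjusted p = 2.3e-17) and ADAMTSL5 by 1.16 (SE 0.07, adjusted p = 2.1e-13). THSD4 differed by 0.62, under the size threshold.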
